A study of Mus musculus with 6 samples.

Results

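Interferon-stimulated genes are the genes that cells switch on after an interferon has bound its receptor, and 33 of them were taken as a named list. A gene was measured where the array had a probe set annotated to that gene alone, and of several such probe sets the brightest over all arrays was used. This gave 31 of the 33 genes, among 18194 genes with a probe set of their own. Isg15 and Ifi44 were not analysed here. The list was set by gene function, and the litters were to be read separately because litter C was already known to be high in both of its pools.

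The samples were primary keratinocytes, the cells that form the epidermis, grown from newborn mice on a C57BL6/FVB background in medium with 100 nM sodium selenite, a selenium source that both genotypes received. In the Gpx4 KO group Gpx4, a selenoenzyme that reduces lipid peroxides in membranes, had been removed by a K14-cre transgene, whose keratin 14 promoter is active in basal keratinocytes. The controls were pools from the same litters labelled only as control, so their alleles are not known here. Each of litters A, B and C gave 1 control pool and 1 knockout pool, which made 3 arrays per genotype and 6 in all, and how many animals a pool held is not known here.

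In the type I interferon pathway, interferon alpha or beta binds a receptor of Ifnar1 and Ifnar2, the kinases Jak1 and Tyk2 phosphorylate Stat2, which acts with Irf9 in a complex called ISGF3. That complex binds the interferon-stimulated response element, a short promoter motif, and the genes it turns on include virus sensors, enzymes that block viral RNA or translation, and Irf7, which raises interferon production further. Keratinocytes carry the receptor and make such genes in infected or inflamed skin.

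The promoters of the list were searched first. Genes of this kind are known as targets of ISGF3 at the motif. A high share of genes with it thus follows in part from the choice of the list and is no independent support. RefSeq promoter windows of GRCm38.p6, from 250 bases before to 50 bases after a gene start, were at hand for 23 of the 31 genes. The core of the response element (GAAA, any 2 bases, GAAA, on either strand, with overlapping matches counted) was found in the windows of 12 of the 23 genes (52.2%), against 3.99% of all 27025 genes with a window and 3.44% of all 32851 windows. In 9 of the 12 the match lay before the gene start, and these stretches are printed here on the strand of the gene, with up to 20 bases on each side and the matches in capitals.

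Ifit1 (chr19:34640765-34640833, + strand): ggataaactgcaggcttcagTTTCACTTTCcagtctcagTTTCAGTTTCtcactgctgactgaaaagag
Ifit3 (chr19:34583353-34583436, + strand): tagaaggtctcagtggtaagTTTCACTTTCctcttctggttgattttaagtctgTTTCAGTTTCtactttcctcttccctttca
Bst2 (chr8:71537567-71537622, - strand): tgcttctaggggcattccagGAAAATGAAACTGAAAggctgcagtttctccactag
Oas1a (chr5:120907526-120907565, - strand): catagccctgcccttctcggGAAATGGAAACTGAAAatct
Oas3 (chr5:120777705-120777754, - strand): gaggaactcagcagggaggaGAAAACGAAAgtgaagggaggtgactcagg
Gbp3 (chr3:142559979-142560034, + strand): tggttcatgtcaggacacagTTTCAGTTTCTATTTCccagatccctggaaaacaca
Gbp2 (chr3:142620584-142620633, + strand): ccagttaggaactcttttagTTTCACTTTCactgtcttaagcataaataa
Rsad2 (chr12:26456543-26456592, - strand): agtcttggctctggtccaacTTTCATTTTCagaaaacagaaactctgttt
Stat2 (chr10:128270256-128270305, + strand): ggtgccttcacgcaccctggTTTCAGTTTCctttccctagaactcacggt

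Ifit1, Ifit3, Bst2, Oas1a and Gbp3 each held 2 matches, which overlapped in Bst2, Oas1a and Gbp3. The first match began 20 bases before the start in Oas1a, nearest to it, and 222 bases before it in Stat2, farthest away. In Ddx58, Ifih1 and Eif2ak2 the match lay after the start. The gamma-activated site TTCNNNGAA, a palindrome bound by STAT dimers, was in the windows of 5 of the 23 genes (Ifi35, Oas1a, Bst2, Eif2ak2 and Ifit2; 21.7%), against 9.55% of all genes. Usp18, Rtp4, Parp14, Zbp1, Oas2, Dhx58, Mx1 and Mx2 had no window in the table. A match is a stretch of letters, not a measured binding site.

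**Figure D1:**
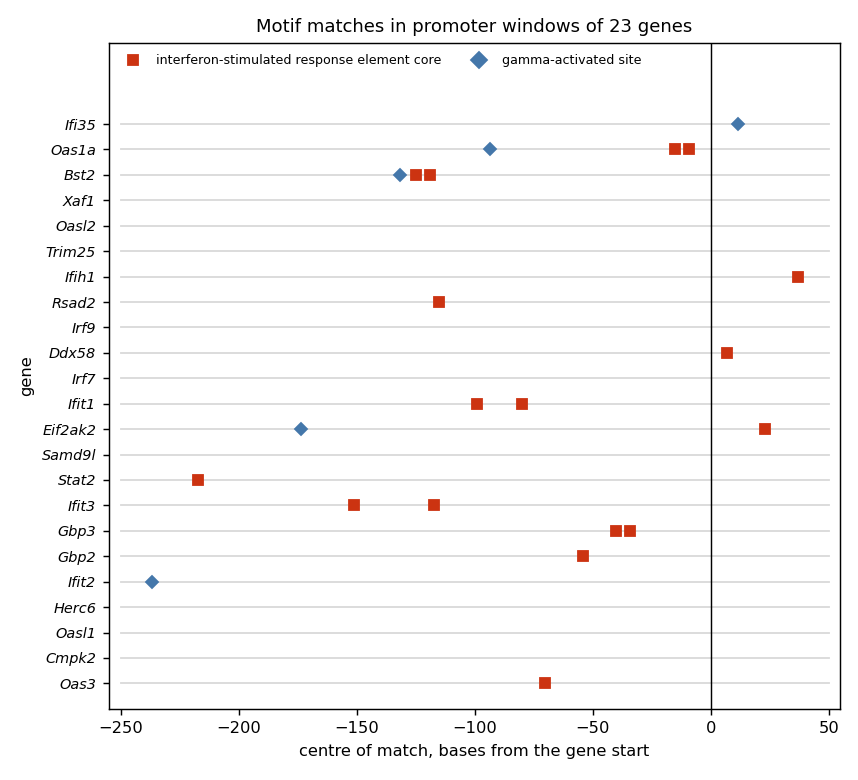
Centres of motif matches, in bases from the gene start at 0, in the promoter windows of 23 interferon-stimulated genes, brightest gene at the top. Squares mark the core of the interferon-stimulated response element and diamonds the gamma-activated site. Squares stand in the rows of 12 genes.

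All levels that follow are quantile-normalized intensities, and values of 3 arrays are always given in the order of litters A, B, C. The level of one gene is not compared with that of another, because probe sets differ in brightness. The labels were checked on Gpx4, which read 496.9, 550.9 and 535.7 in controls and 212, 259.7 and 216.1 in knockouts (log2 change -1.15 ± 0.091 SE, limma adjusted p = 0.0206). The direction held in every setting, but the call was lost on the deposited scaling (adjusted p = 0.122), with averaged probe sets (0.0635), without the intensity trend in limma (0.1), without litter A (0.153) and without litter B (0.278). The basal keratins Krt5 and Krt14, which define these cells, read 6278.1 or more on every array. Of the 11 keratinocyte markers measured none passed the limma test of genotype. Each of the 11 had a mean over the arrays of at least 64. At an unadjusted p under 0.05, 14.6% of all probe sets and 28.3% of those that bright differed in either direction. Of the markers none was higher and 4 were lower. These were Krt15 (log2 change -2.49 ± 0.65), Trp63 (-0.43 ± 0.076), Col17a1 (-0.36 ± 0.11) and Lamb3 (-0.5 ± 0.19). Without litter C these 4 passed, when 6.16% of all probe sets did. Before normalization the mean intensity trimmed by 2% at each end lay between 72.8 and 114, with the control of litter C the brightest array. The 3′ to 5′ ratio of the beta-actin control probe sets, a sign of RNA quality, lay between 1.18 and 1.29 and that of Gapdh between 0.675 and 0.74. The summed level of the Y-linked genes Eif2s3y, Uty and Kdm5d was 247.2 to 314.2 in controls and 4.02 to 8.58 in knockouts, so the sex of the pools and the genotype cannot be told apart in any comparison of genotypes here.

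The 31 genes were low in the controls of litters A and B, somewhat higher in the knockout of litter A, and high in the knockout of litter B and in both pools of litter C. As a median over the genes, the log2 level relative to each gene's own mean of 6 arrays was -0.87 in control A and -0.86 in control B, -0.48 in the knockout of litter A, 0.49 in the knockout of litter B, 0.65 in the control of litter C and 1.19 in the knockout of litter C. Over all 45037 probe sets tested the same median lay between -0.01 and 0 on every array. The knockout of litter C was the highest of the 6 arrays for 30 of the 31 genes, as it was for 18.2% of all probe sets, and Mx2 was the exception. The controls of litters A and B lay below the other 4 arrays for 22 of the 31, against 13.4% of all probe sets. In RNA from pools of cells, a gene that is higher in every cell and a larger share of cells with the gene on cannot be told apart.

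**Figure D2:**
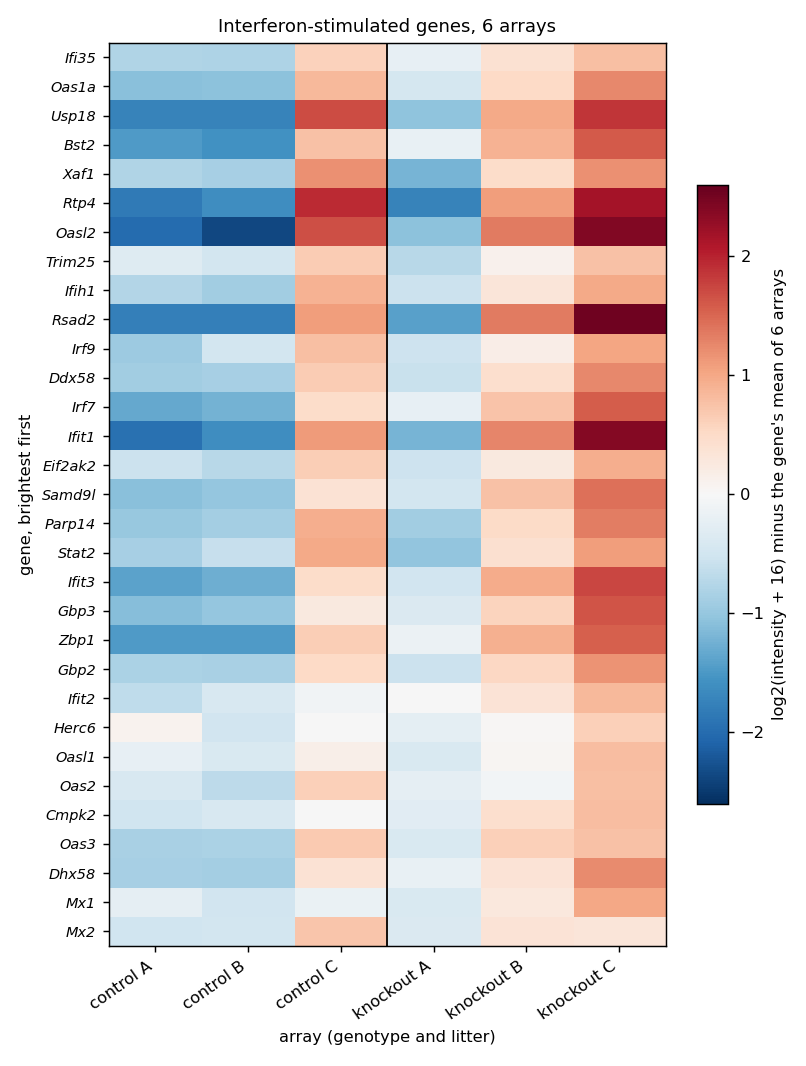
Colour gives log2(intensity + 16) minus the gene's own mean over 6 arrays, for 31 genes (rows, brightest first) on 6 arrays (columns, controls left of the line and knockouts right). The columns of control A and control B are blue for most genes, and knockout C is red, at a median of 1.19.

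Of the transcription factors of the pathway, 3 were in the list. Irf7, the factor that amplifies interferon production, read 54, 59.4 and 229.1 in controls and 136.9, 280.5 and 510.8 in knockouts. It was higher in the knockout of every litter, and the knockout of litter A still lay below the control of litter C. Irf9, the DNA-binding part of ISGF3, read 91.7, 132 and 339.5 in controls and 126.6, 216.8 and 407.7 in knockouts. Stat2, its partner, read 31.2, 40.6 and 154.8 in controls and 26.3, 99.9 and 168.1 in knockouts. For Irf9 and Stat2 both arrays of litter C lay above the other 4, and for Stat2 the knockout of litter A was the lowest array.

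Sensors of foreign or misplaced nucleic acid came next. Ifih1, which encodes the RNA sensor MDA5, read 128.4, 115.2 and 440.5 in controls and 150.2, 289.2 and 465.7 in knockouts. Ddx58, which encodes the RNA sensor RIG-I, read 88.4, 91.9 and 292.5 in controls and 115.9, 249.5 and 451.9 in knockouts. In both, the knockout of litter B stood over 2-fold above its control, while in litter A the genotypes lay close together. Eif2ak2, the kinase PKR that stops translation when it meets double-stranded RNA, read 70.5, 60.7 and 181.9 in controls and 71.3, 134.4 and 226.8 in knockouts. Trim25, a ubiquitin ligase that acts on RIG-I, read 223.3, 199.9 and 460.4 in controls and 167.5, 307.8 and 497.4 in knockouts, with the knockout of litter A the lowest array. A second probe set of Trim25, nearly as bright, read 183, 219.6 and 416.1 in controls and 217, 312.6 and 448.8 in knockouts, higher in the knockout of every litter, so the direction in litter A differed between probe sets. The dimmer sensors Zbp1, which reads Z-form nucleic acid, and Dhx58, a relative of RIG-I, had means over the 6 arrays of 48.9 and 21.4. Zbp1 read 1.4, 1.4 and 59.9 in controls and 27.5, 75.8 and 127.3 in knockouts, so the control of litter C lay above the knockout of litter A.

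Among the oligoadenylate synthetases, which make the activator of an RNA-degrading enzyme, Oas1a was the brightest. Oas1a read 226, 229.9 and 907.4 in controls and 358.5, 724 and 1214.7 in knockouts. Oasl2, a family member with ubiquitin-like domains, read 30.5, 20 and 577.1 in controls and 72.2, 458.3 and 966.5 in knockouts. Oas2, Oas3 and Oasl1 were dim, with means between 22 and 22.8. Oas3 was at 3 in control A, 3.2 in control B and 38.2 in control C.

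Antiviral effectors formed the next group. Ifit1, which binds viral RNA caps, read 12.5, 20 and 221.5 in controls and 31.2, 246.8 and 558.4 in knockouts. Ifit3, its partner in a complex, read 12.6, 15 and 88.1 in controls and 37.1, 129.5 and 232.5 in knockouts. Rsad2, the radical SAM enzyme viperin, read 21, 21.1 and 253.5 in controls and 31.4, 305.5 and 716.8 in knockouts. In these 3 genes the controls of litters A and B were the lowest arrays. Bst2, the membrane protein tetherin that holds virions at the cell surface, read 129.9, 120 and 666.8 in controls and 337.9, 738 and 1202.4 in knockouts. Gbp3, a guanylate-binding GTPase, read 14, 16.3 and 61.5 in controls and 33.8, 81.1 and 183.6 in knockouts. Samd9l, a restriction factor of poxviruses, read 30.9, 34.1 and 114.6 in controls and 55.6, 153.4 and 253.6 in knockouts. Bst2, Gbp3 and Samd9l were higher in the knockout of every litter, and the control of litter C stood above the knockout of litter A in each. In all 6 of these effectors the knockout of litter B was higher than the control of litter C.

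Dimmer effectors were the GTPases Gbp2 (mean 46.9), Mx1 (16.1) and Mx2 (10.6), Ifit2 (46.8) and the mitochondrial nucleotide kinase Cmpk2 (22.2), which lies next to Rsad2 in the genome. Mx1, which carries inactivating mutations in most laboratory mouse strains, read at most 20.1 outside the knockout of litter C, where it read 44.5. Ifit2 was the one gene of the list whose 3 knockout arrays all lay above all 3 controls, a pattern met by 8.79% of all probe sets: it read 21.4, 28.2 and 39.1 in controls and 42.4, 59.8 and 89.8 in knockouts.

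Regulators and other members completed the list. Usp18, the protease that removes ISG15 and dampens receptor signalling, read 94.5, 94.4 and 1170.5 in controls and 161.4, 709.9 and 1323.3 in knockouts. Rtp4, a chaperone of receptors, read 42.3, 52.2 and 786.2 in controls and 47.4, 431.5 and 929.1 in knockouts. In both genes the control of litter C was far above the other controls and close to its own knockout. Xaf1, which binds an inhibitor of caspases, read 203.1, 192.1 and 843.5 in controls and 147.9, 514.2 and 848.9 in knockouts. Parp14, an ADP-ribosyltransferase, read 30.8, 34.5 and 162.7 in controls and 33.6, 114.8 and 217.2 in knockouts. Ifi35, the brightest member, read 707.8, 698.2 and 1860.2 in controls and 1048.8, 1627.3 and 2130.7 in knockouts. Herc6, the ligase that attaches ISG15 in mice, was dim and read 12.6 to 46.1 on the brightest of its 4 probe sets. Another, nearly as bright, read 8.9, 10.4 and 20 in controls and 15.1, 27.2 and 52.4 in knockouts, higher in the knockout of every litter. A dimmer one (mean 11.3) was also higher in each litter, and the dimmest (mean 4.68) was lower in litter A. The direction of Herc6 in litter A thus differed between probe sets. The probe sets of Trim25 and Ifi35 are of a type that can share probes between genes, and their other probe sets above a mean of 64 also had the control of litter C above the other controls.

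**Figure D3:**
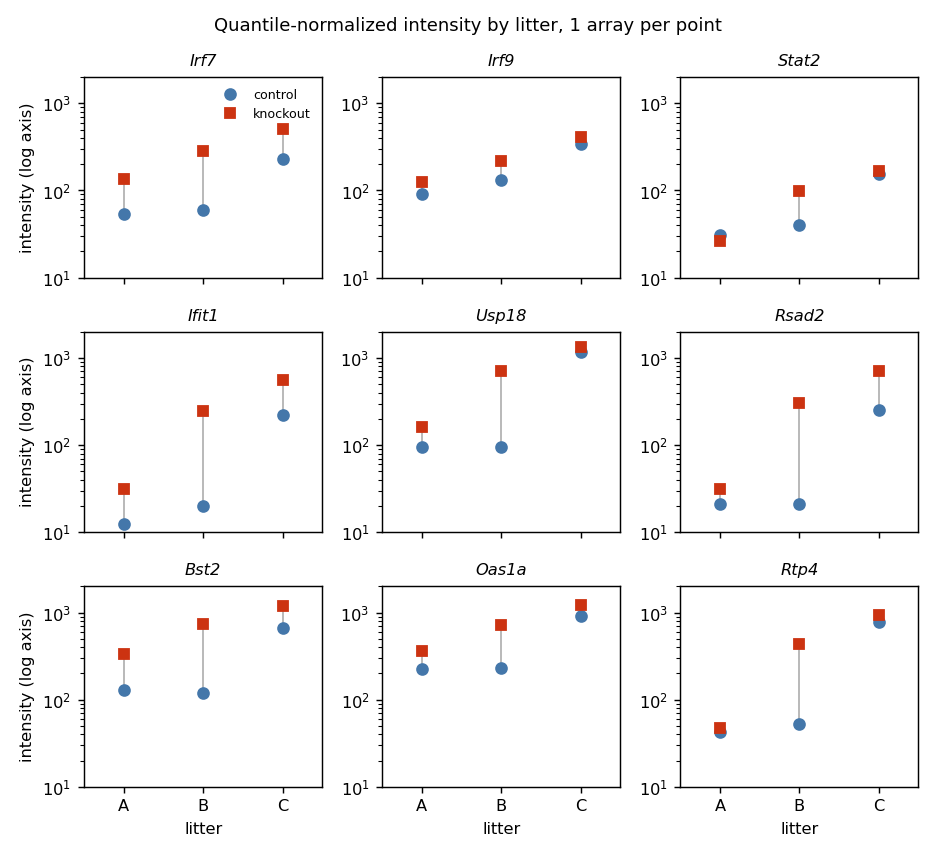
Quantile-normalized intensity (log axis) of 9 members by litter. Circles are controls, squares are knockouts, each point is 1 array, and grey lines join the pools of a litter. In litter B the pools stand far apart (Ifit1 at 20 and 246.8), and in litter C both are high (221.5 and 558.4).

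The first comparison asked how the knockout differed from its control within litters. Log2 changes, and the 2-fold counts (1 on that scale), are knockout minus control on log2(intensity + 16), a scale that understates changes of dim genes, from limma with litter as a block. All 31 genes had a positive log2 change, from 0.1 for Trim25 to 1.79 for Oasl2, with a median of 0.75, against a median of 0 and 50.5% positive over all probe sets. None of the 31 passed a limma adjusted p of 0.05, which 0.42% of all probe sets passed (0.158% as higher in the knockout). An unadjusted p under 0.05 was reached by 20 of the 31 and by 14.6% of all probe sets. Irf7 had the smallest adjusted p, with a log2 change of 1.40 ± 0.19 SE (limma adjusted p = 0.0505). Gbp3 (1.23 ± 0.20, adjusted p = 0.0702) and Ifit3 (1.46 ± 0.26, adjusted p = 0.082) came next. Larger but more variable changes were those of Oasl2 (1.79 ± 0.55, adjusted p = 0.217), Rsad2 (1.64 ± 0.46, adjusted p = 0.186) and Ifit1 (1.62 ± 0.38, adjusted p = 0.135). The remaining adjusted p values lay between 0.0896 and 0.848.

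The change differed in size between litters. The median over the 31 genes was 0.36 for litter A, 1.35 for litter B and 0.63 for litter C, and the median of all probe sets was 0 in each. On the probe sets used, the knockout was higher for 25 of the 31 in litter A, for all 31 in B and for 30 in C. The shares of all probe sets were 50.3%, 49.2% and 50.1%. At least 2-fold higher were 3 genes of litter A (0.879% of all probe sets), 21 of litter B (0.864%) and 7 of litter C (0.546%), and none was 2-fold lower in any litter (1.15%, 0.895% and 0.6% of all probe sets). The log2 change was highest in litter B for 27 of the 31, as it was for 30.7% of all probe sets, and it reached 3.72 there for Oasl2. In 24 of the 31 the knockout lay above its own control in each litter, against 18.1% of all probe sets. Of the 20 members with a mean of at least 64, 17 did so, against 25.1% of the 13219 probe sets that bright, and 17 were at least 2-fold higher in the knockout of litter B, against 1.86%. The 7 others of the 31, on the probe sets used, were Trim25, Xaf1, Stat2, Oasl1, Herc6 and Mx1, lower in the knockout of litter A, and Mx2, lower in that of litter C. The difference between litters has 1 pair of arrays per litter behind it and was not tested.

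**Figure D4:**
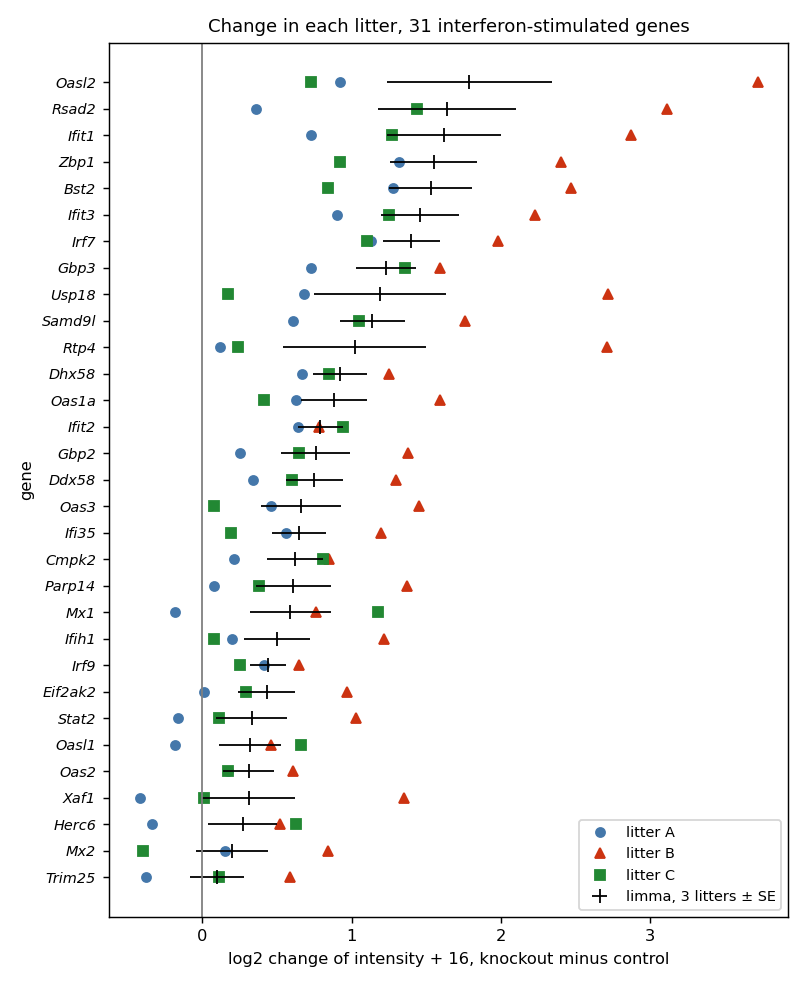
Log2 change, knockout minus control, of 31 genes in litters A, B and C (points) and from limma over the 3 litters (bars, ± SE). Litter B gives the highest point for 27 genes, and every limma change lies above 0.

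The count of 0 depended on the arrays and settings used. Without litter C 8 of the 31 were higher in the knockout (Irf7, Bst2, Zbp1, Ifi35, Oas1a, Ifit3, Dhx58 and Gbp3), when 3.01% of all probe sets were, with a median of 0.82. Without litter A none passed, with 0.00222% of all probe sets called higher (24 of the 31 and 9.2% of all probe sets at an unadjusted p under 0.05), with a median of 0.95. Without litter B none passed, nor did any other probe set (15 of the 31 and 8.22% of all at an unadjusted p under 0.05), with a median of 0.45, and Trim25, Stat2, Xaf1 and Mx2 had negative changes. When arrays were only shifted to a common median, in place of quantile normalization, 9 passed, and without the 40% dimmest probe sets 9 passed, when 1.58% and 4.18% of all probe sets tested did. On the intensities scaled as deposited none passed (12 of the 31 and 9.79% of all at an unadjusted p under 0.05), the median in litter C was 0.11 and that of all probe sets over the litters -0.07.

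The second comparison asked how far the litters differed at the same genotype. In controls the median over the 31 genes was 1.56 higher (log2) in litter C than in litter A and 1.5 higher than in litter B, while litters A and B differed by 0.01. The control of litter C lay above both other controls for 30 of the 31 (36.3% of all probe sets) and at least 2-fold above both for 25, against 0.688% of all probe sets. Of the 20 brighter members it was 2-fold above for 19, against 1.51% of probe sets that bright. Among knockouts litter C was 1.72 above litter A and 0.73 above litter B, and litter B was 0.98 above litter A. The knockout of litter B was at least 2-fold above that of litter A for 15 of the 31, against 0.233% of all probe sets. Both arrays of litter C lay above the other 4 for 17 of the 31 genes, against 8.6% of all probe sets, and no gene of the list had litter A or litter B on top in this way (5.96% and 4.56% of all probe sets). Among the 20 brighter members litter C was on top for 13, against 11.2% of probe sets that bright.

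A limma F test for any difference among the 3 litters, with genotype in the model, passed an adjusted p of 0.05 for none of the 31 genes and for 0% of all probe sets. An unadjusted p under 0.05 was reached by 29 of the 31, against 7.58% of all probe sets, and Herc6 and Mx1 were the others. The smallest adjusted p was that of Irf9 at 0.212, with litter C 1.65 above litter A and 1.06 above litter B. The largest differences between litters C and A were those of Rtp4 (3.84), Oasl2 (3.58), Rsad2 (3.41), Ifit1 (3.33) and Usp18 (3.17). With the shift to a common median 19 of the 31 passed the F test, when 93 of all probe sets did, and without the 40% dimmest probe sets 1 passed, when 17 of all did. Without litter B 4 of the 31 passed the comparison of the 2 litters left, when 7 of all did. That litter C was high was known when this comparison was chosen, so these counts describe it and are no independent support.

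The members had like profiles over the 6 arrays. The log2 level of a gene correlated with the mean profile of the other members with a median r of 0.97, from 0.74 for Herc6 to 1 for Ddx58 and Gbp2, and 27 of the 31 had an r of at least 0.9. Among all probe sets with a mean of at least 64 an r of at least 0.9 with the mean profile of the members was found for 3.92%. These correlations rest on 6 arrays that share litters and genotypes and are given as a description. Of the 31 genes 14 had further probe sets, 22 in all. Of the 7 of these with a mean of at least 64, 6 were higher in the knockout of each litter and 5 had both arrays of litter C above the other 4. Their log2 changes ran from 0.27 to 1.67, and the median of all 22 was 0.42. Some dimmer ones went the other way. That of Parp14 (mean 10.4) was lower in the knockout of every litter. A probe set each of Dhx58 (10.8) and Cmpk2 (16.4) was lower in litter B, and that of Rtp4 (13.1) in litter C.

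The other parts of the interferon pathway were read from lists of their own. For the counts in all lists below, an unadjusted p under 0.05 for genotype was reached by 14.6% of all probe sets. That share was 28.3% among those with a mean of at least 64. Both arrays of litter C were on top for 8.6%, and the knockout lay above its control in each litter for 18.1%. The controls of litters A and B lay below the other 4 arrays for 13.4%. Of 10 measured interferon genes 8 read under 16 on every array, and their median log2 change was 0.03. Ifnb1, interferon beta, read 10.1, 5.3 and 5.9 in controls and 10.1, 11.9 and 9.6 in knockouts. No interferon gene passed the limma test of genotype, adjusted or at an unadjusted p under 0.05. The other interferon genes of the list were not analysed here.

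Receptors and signalling parts were listed separately. The receptor chain Ifnar1 read 88.8 to 103.7 over the 6 arrays and Ifnar2 103.6 to 164.4. The kinase Jak1 read 540, 560.8 and 563.1 in controls and 397.1, 496.4 and 515.9 in knockouts, and the kinase Tyk2 70.5 to 114.1. Irf1, a factor induced by interferon gamma, read 50.5 to 87.2. Irf3, the constitutive factor downstream of the sensors, read 242.6, 250.6 and 223.8 in controls and 197.8, 199.6 and 178.8 in knockouts. In Jak1 and Irf3 all knockouts lay below all controls, as they did for 9.43% of all probe sets. Of the 15 genes of this list none passed. At an unadjusted p under 0.05 by limma 4 did, all of them lower in the knockout. The median log2 change of the 15 was -0.04, with litter C 0.02 below litter A at the median. Both arrays of litter C were on top for 2 of the 15, Jak2 and Stat3. Jak2, a kinase of cytokine receptors, read 112, 101.8 and 129.8 in controls and 129.6, 122.4 and 148.2 in knockouts. Of 15 sensors and adaptors outside the list, such as Tbk1 (451.4 to 526.1), Zc3hav1 (262.6 to 431.6) and Myd88 (180 to 229.1), none passed (4 at an unadjusted p under 0.05 by limma), with a median of 0.11. In 6 of the 15 the knockout lay above its control in each litter, and in 3 litter C was on top. Ifi204, a DNA sensor of the p200 family, was among both: it read 6.1, 9.5 and 73.8 in controls and 48.5, 71.1 and 102.2 in knockouts (1.24 ± 0.28, limma adjusted p = 0.126, and 0.00645 without litter C).

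Among 11 negative regulators of the pathway, Socs3, an inhibitor of JAK kinases that cytokines of the interleukin 6 type induce, fell in the knockout. Socs3 read 214, 175.7 and 210.4 in controls and 98.7, 82.8 and 112.3 in knockouts (log2 change -0.93 ± 0.11 SE, limma adjusted p = 0.038). All its knockouts lay below all controls, as they did for 9.43% of all probe sets. The other 10 did not pass, and the median of the 11 was -0.13. Socs3 did not pass on the deposited scaling (adjusted p = 0.14), with a pseudocount of 64 (0.0557), with averaged probe sets (0.119), without the intensity trend in limma (0.114), without litter A (0.259) or without litter B (0.43).

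Further targets of interferon came from a longer list. Of 51 other interferon-stimulated genes 1 rose and none fell by the adjusted limma test, with a median log2 change of 0.29. The change was positive for 40, and 18 had both arrays of litter C on top. At an unadjusted p under 0.05 by limma 22 of the 51 differed, 19 of them higher. The lower ones were Ifi27l2a, Ly6e and the dim Tnfsf10. Ifi27l2a read 102.9, 108.2 and 240.8 in controls and 65.3, 81.6 and 92.6 in knockouts (-0.71 ± 0.19, limma adjusted p = 0.165). The gene that rose was Trim30a, a ubiquitin ligase of the TRIM family that dampens inflammatory signalling: it read 14.1, 12.4 and 47.2 in controls and 43.6, 63.6 and 160.3 in knockouts (1.32 ± 0.17, limma adjusted p = 0.0448). Trim30a did not pass on the deposited scaling (adjusted p = 0.134), with a pseudocount of 64 (0.0905), with averaged probe sets (0.091), without the trend (0.11), without the litter block (0.255), without litter A (0.177) or without litter B (0.432). Of 7 further GTPases of the guanylate-binding and immunity-related families none passed (3 at an unadjusted p under 0.05 by limma), with a median of 0.5, and 6 of the 7 had both arrays of litter C on top. Igtp read 88.2, 83.5 and 259.5 in controls and 76.8, 194.4 and 394.3 in knockouts, Irgm1 58.7, 48.1 and 217.6 against 70.4, 185.8 and 391.7, and Gbp7 12.3, 13.6 and 87.9 against 27.2, 80.2 and 151.4.

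Of 12 antigen presentation genes 11 had both arrays of litter C on top, though none passed the limma test of genotype (4 at an unadjusted p under 0.05) and their median change was 0.13. B2m, the light chain of class I molecules, read 2661.4, 2322.4 and 3229.8 in controls and 2990.9, 3394.3 and 4277 in knockouts, so that here the knockout of litter B lay above the control of litter C. The heavy chain gene H2-K1 ran from 1252.9 in the control of litter A to 2751.5 in the knockout of litter C and H2-D1 from 1830.5 to 3675.4 in the same arrays, and these class I genes are near-identical copies that share probes. Of 6 chemokines none passed (1 at an unadjusted p under 0.05 by limma, median 0.11). Cxcl10, a chemokine induced by interferon, read 15.2, 20 and 24.3 in controls and 15.1, 61.1 and 117 in knockouts, and Ccl5 read 7.2, 13.8 and 26.4 against 6.2, 32.8 and 67.5. In Cxcl10 and Ccl5 the knockouts of litters B and C were the 2 highest arrays. Ccl2, next in brightness, had the control of litter C highest, with 21.2, 13.8 and 27.6 in controls and 6.3, 22.4 and 27.1 in knockouts. The log2 change was positive for 4 of the 6 chemokines.

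**Figure D5:**
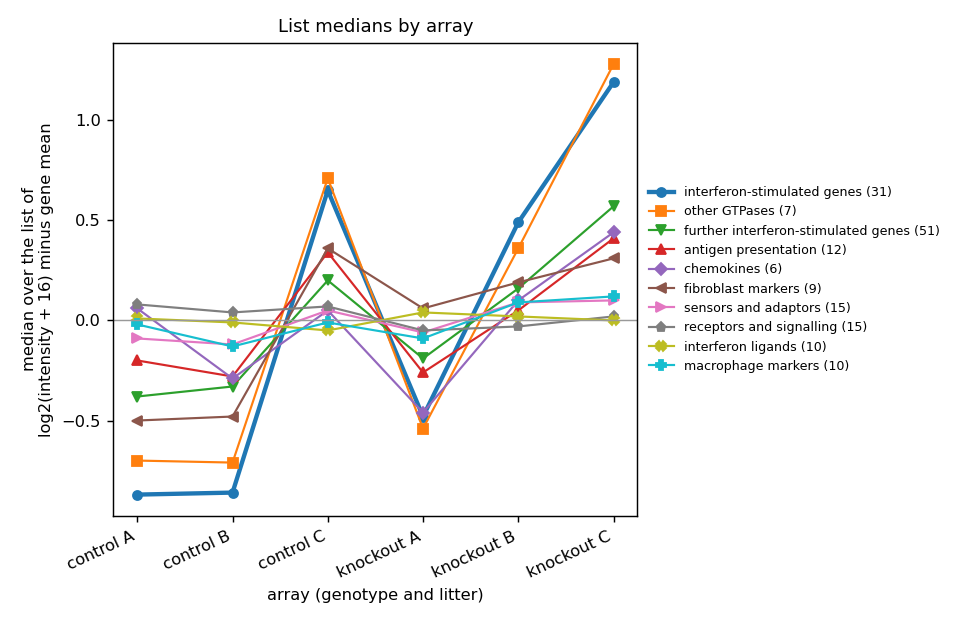
Median over each list of log2(intensity + 16) minus the gene's own mean, on 6 arrays; the number of genes measured stands in brackets and lines only guide the eye. The interferon-stimulated genes run from -0.87 to 1.19 and the other GTPases from -0.71 to 1.28, while interferon ligands stay between -0.05 and 0.04.

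Markers of other skin cells were read on the same arrays. Of 37 markers of macrophages, dendritic and Langerhans cells, lymphocytes, mast cells and endothelium, 36 read under 64 on every array and 22 under 16, and 2 had both arrays of litter C on top. The summed level of the 10 macrophage markers was 182.4, 157.9 and 204.7 in controls and 169.7, 194.6 and 233 in knockouts. It was highest in the knockout of litter C, then in the control of litter C and the knockout of litter B. The Langerhans cell marker Cd207 and the T cell marker Cd3e read under 10 on every array. Of the 9 dendritic and Langerhans cell markers none passed the limma test of genotype. All knockouts lay above all controls for 3 of the 9, against 8.79% of all probe sets. Among the 3 were Cd207 (1, 2.2 and 1 in controls, 2.6, 9.3 and 8.2 in knockouts) and Cd74 (13.4, 7.4 and 20 against 24.1, 25.8 and 33.5). H2-Ab1 went the other way, with 35.8, 24.8 and 23.3 in controls and 5.4, 14.9 and 10.6 in knockouts.

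Fibroblast markers stood in a similar order of arrays, and none of them passed the limma test of genotype (3 higher and 1 lower at an unadjusted p under 0.05). The summed level of 9 such markers was 317.1, 282.4 and 647.4 in controls and 464.8, 542.8 and 666.8 in knockouts, and 6 of the 9 had the controls of litters A and B below the other 4 arrays. Col1a1, a collagen of fibroblasts, read 43.6, 30.4 and 135.2 in controls and 116.8, 126.8 and 212.2 in knockouts. Postn, a matrix protein of fibroblasts, ran the other way, with 100.7, 62.6 and 34.6 in controls and 20.7, 11 and 15.2 in knockouts (-1.30 ± 0.23, limma adjusted p = 0.0803, and 0.00485 without litter C).

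Melanocyte markers separated the genotypes. Their summed level over 8 genes was 4380 to 4545 in controls and 6198 to 6764 in knockouts. All knockouts lay above all controls for 7 of the 8, against 8.79% of all probe sets. By limma 2 of the 8 rose, and 7 were higher at an unadjusted p under 0.05. Tyrp1, an enzyme of melanin synthesis, read 1060.1, 1069.6 and 1223.6 in controls and 1627.8, 1893.6 and 1931.4 in knockouts (0.69 ± 0.078, limma adjusted p = 0.038). Mlana, a melanosome protein, read 203.5, 184.7 and 159.5 against 373.8, 395.4 and 464.1 (1.11 ± 0.14, limma adjusted p = 0.0429). Both calls were lost on the deposited scaling (adjusted p = 0.539 and 0.209), with a pseudocount of 64, without the trend, without litter A (0.229 and 0.174) and without litter B (0.435 and 0.407). That of Tyrp1 was also lost with the shift to a common median (0.185) and that of Mlana with averaged probe sets (0.069). Krt15, a keratin of basal and follicular stem cells, was lower outside the controls of litters A and B, with 267.5, 238.6 and 5.6 in controls and 11, 1.8 and 2.2 in knockouts. The part of any of these in the levels of the interferon-stimulated genes was not tested.

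The promoter matches can be set beside the levels. The 12 genes with a response element core in the window had a median log2 change of 0.82, and of 1.52 in litter B, and the 11 genes with a window and no match had 0.62 and 0.85. The control of litter C stood 1.76 above that of litter A at the median of the 12 and 1.37 above it at the median of the 11. The 8 genes without a window, whose motifs are not known here, had medians of 0.76, 1.31 in litter B and 1.58 between these controls. No difference between these groups was tested. Irf7 and Oasl2 had a window and no match. Among genes of the other lists with a window, the core was found in 7 of 10 interferon ligands and 4 of 4 GTPases. It was also found in 14 of 43 further interferon-stimulated genes (32.6%) and in 1 of 14 receptors and signalling genes.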

How the data were processed

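Total RNA of 6 keratinocyte pools was labelled with biotin for 1-colour arrays, per the labels' protocols. The authors deposited linear intensities, with 1 value for each probe set on an array, and their background correction and scaling are unknown here. Leaving out 64 control probe sets gave 45037. Intensities were quantile-normalized and tested as log2(intensity + 16) with limma 3.58.1 in R 4.3.3 (lmFit, eBayes with an intensity trend), two-sided, with Benjamini-Hochberg adjustment over all probe sets. Litter was a block because the labels name the litter that pairs the pools; residuals of same-litter arrays correlated with r = 0.175, 0.047 and 0.207. The litter test was a moderated F test with genotype in the model. Symbols came from the platform annotation of 2016, updated through RefSeq: 34945 probe sets had 1 gene, 932 several and 9160 none listed. Of the 33 members and 230 other listed genes, 36 were not matched.

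Members and lists were chosen with earlier results of these data known. All members are named. Arrays are given one by one for Irf7, Irf9, Stat2 and the 20 members with a mean of at least 64, and for a few dimmer ones. Krt15, Col1a1, Postn, Cd207, Cd74, H2-Ab1, Cd3e, Jak2, Stat3 and Ifi204 were picked after their values were seen. So were Trp63, Col17a1, Lamb3, Ifi27l2a, Ly6e and Tnfsf10. Genes of the other lists were named where they passed, where they are core parts of the pathway, or as the 3 brightest. The fits were run on simulated data with independent noise and planted shifts larger than the limma change of any member. That run does not show how well changes of the size seen here are found. The labels call the samples biological replicates, and with 3 arrays per group their number limits the precision. Alternatives changed the normalization, pseudocount, filter, probe set rule, block, prior and litters.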

Additional observations from a re-analysis of the deposited data

How the results depend on the processing

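There were 3 pairs of arrays, and on each of the arrays 45.4% to 50.1% of intensities lay under 16. Over all probe sets 189 passed the genotype test. That number was 35 as deposited, 710 with arrays shifted to a common median, 601 with a pseudocount of 1, 59 with 64, 1130 without the 40% dimmest, 30 with probe sets averaged per gene and 6 without the intensity trend. With a litter left out it ran from 0 to 2773, and the count of interferon-stimulated genes from 0 to 8. That count was 9 with the median shift, 4 with a pseudocount of 1, 9 without the dimmest and 0 as deposited, with a pseudocount of 64, with mean probe sets, without the trend and without the block. The block for litter thus changed no call of a member, and without it 135 probe sets passed and the smallest adjusted p of a member was 0.229. Their median change stayed positive in every setting, from 0.41 with a pseudocount of 64 to 1.06 with 1.

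The litter F test passed for 93 probe sets with the median shift, 1 with a pseudocount of 1 and 17 without the dimmest, and for 19 and 1 of the members with the median shift and without the dimmest. The median of litter C minus litter A was 1.91 as deposited, 1.82 with the median shift, 2.09 with a pseudocount of 1, 1.16 with 64 and 1.39 with mean probe sets. Signs turned for Trim25 (-0.09 as deposited, -0.03 with the median shift) and without litter B. With a litter left out Trim25 ran from -0.14 to 0.35, Stat2 from -0.03 to 0.57, Mx2 from -0.13 to 0.49 and Xaf1 from -0.20 to 0.68. The sign also turned for Herc6 between litters B and A (0.01 with mean probe sets). The cause of these shifts was not tested.

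Medians of the other lists moved as follows. Interferon ligands were at 0.08 with the median shift, 0.17 with a pseudocount of 1, and 0 to 0.04 with a litter left out. Receptors and signalling were at -0.23 as deposited and -0.17 with the median shift, negative regulators at -0.33 and -0.27, and from -0.12 to -0.03 with a litter left out. Sensors were at 0.30 with a pseudocount of 1 and antigen presentation at -0.05 as deposited.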
